A study of Mus musculus with 24 samples.

Results

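The 33 transcripts described here are genes known for their expression in endothelial cells, the cells that line blood vessels. They were chosen by name from the 24319 genes of each deposited table, and all 33 were found in both tables. A set of 12 is typical of the liver sinusoids, 18 are general vascular genes, and 3 encode secreted ligands of the Wnt pathway that endothelial cells of the liver make. RNA was sequenced from whole liver and from isolated hepatocytes of 2-month-old male mice, with 3 biological replicates for each of 4 genotypes in each preparation. The WT controls were wild-type C57/BL6 mice. IkkB KO mice were Alb-Cre+;IkkBf/f, Shp2 KO mice were Alb-Cre+;Shp2f/f, and Double KO mice were Alb-Cre+;IkkBf/f;Shp2f/f. Cre in all knockouts was driven by the albumin promoter, which is active in hepatocytes, so the endothelial cells were not the cells in which the genes were designed to be deleted. The labels give the WT mice no Cre transgene or floxed allele, so an effect of these alone cannot be told apart from that of a deletion.

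Liver sinusoids are lined by a specialised endothelium whose cells carry open pores, lack a continuous basement membrane, and take up waste molecules from blood through scavenger and lectin receptors. These cells depend on vascular endothelial growth factor from neighbouring cells, which they sense through the receptors Kdr, Flt1 and Flt4, and they send Wnt ligands and R-spondin to hepatocytes, where these sustain the gene programme around the central vein. When sinusoidal cells lose this character, a change called capillarisation, they take on features of ordinary vessels, and Cd34 is among the markers used to follow it.

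Every level below is an expression value from the authors' deposited tables in FPKM (a fragment count corrected for the length of the transcript and the size of the library), with 1 value per genotype from 3 pooled libraries. No value per library was given, so no SD, interval or overlap between groups can be stated, the depth is unknown, and the q-value of the authors' test is the only measure of replicate error. "Rose" and "fell" mark a gene whose q-value was under 0.05 and whose level was at least 0.1 FPKM in 1 of the compared genotypes, and a gene meeting these terms is said to pass. Differences are given as log2(FPKM + 1), which understates the change of low genes. In whole liver, a lower level can mean fewer endothelial cells or less RNA per cell, and these cannot be told apart. The targeted transcript Ikbkb was 9.48 FPKM in IkkB KO and 6.31 in Double KO liver, against 15.7 in WT and 14.2 in Shp2 KO. Ptpn11, which encodes Shp2, was 4.09 FPKM in Shp2 KO and 6.09 in Double KO liver, against 12.5 in WT and 10.1 in IkkB KO.

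In WT liver the members spanned from 0.544 FPKM for the ligand Wnt9b to 46.1 for Clec4g, a lectin of sinusoidal cells. The sinusoidal genes had a median of 7.66 FPKM, and Fcgr2b, an inhibitory receptor for IgG, and Dnase1l3, a secreted nuclease that degrades DNA, followed Clec4g at 19.4 and 14.5 FPKM. Fcgr2b shares sequence with a neighbouring Fc receptor gene, so its level is less certain. General vascular genes had a median of 4.21 FPKM and were led by Plvap, which forms the diaphragms of endothelial pores, at 21.7 FPKM, Eng, a co-receptor for TGF-β family ligands, at 21.6 FPKM, and Egfl7, a secreted vascular protein, at 19.6 FPKM. At the low end of this group stood Flt1, a VEGF receptor, at 0.842 FPKM and Vwf, the platelet adhesion factor stored in large vessel endothelium, at 1.17 FPKM. Cd34, a sialomucin of capillary endothelium and blood progenitors, stood at 1.45 FPKM. Without a spread between libraries, neighbours in this order were not tested against each other.

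Promoter sequence was available in RefSeq (build GRCm38.p6) for 19 of the 33 members, in 23 promoters of 300 bases around the annotated start. Of these, 4 are shown because the results below turn on 3 of the genes (Kdr and Tek, which fell in Shp2 KO liver, and Cd34, which rose in Double KO liver) and because Stab1 shows a match in a sinusoidal gene. Each is written 5′ to 3′ on the strand of its gene, and capitals mark exact matches to motifs searched on both strands: ACAGGAA and CCGGAAG, which ETS factors such as Erg bind, AGATAAG, which GATA factors bind, and ACAAAG, which SOX factors bind. The Tek promoter lies at chr4:94739039-94739338 (plus strand), Stab1 at chr14:31168592-31168891 (minus strand), Kdr at chr5:75978406-75978705 (minus strand) and Cd34 at chr1:194938571-194938870 (plus strand).
Tek: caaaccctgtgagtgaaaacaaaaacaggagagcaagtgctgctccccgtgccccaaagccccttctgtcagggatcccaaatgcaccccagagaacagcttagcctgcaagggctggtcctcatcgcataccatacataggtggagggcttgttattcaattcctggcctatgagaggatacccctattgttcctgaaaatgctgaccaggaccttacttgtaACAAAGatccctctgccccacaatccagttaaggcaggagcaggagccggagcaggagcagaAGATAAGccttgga
Stab1: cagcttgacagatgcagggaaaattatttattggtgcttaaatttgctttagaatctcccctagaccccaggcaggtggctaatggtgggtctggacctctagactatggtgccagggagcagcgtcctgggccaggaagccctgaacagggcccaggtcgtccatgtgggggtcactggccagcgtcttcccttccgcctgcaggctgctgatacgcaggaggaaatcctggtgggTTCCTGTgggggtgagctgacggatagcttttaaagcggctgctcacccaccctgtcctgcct
Kdr: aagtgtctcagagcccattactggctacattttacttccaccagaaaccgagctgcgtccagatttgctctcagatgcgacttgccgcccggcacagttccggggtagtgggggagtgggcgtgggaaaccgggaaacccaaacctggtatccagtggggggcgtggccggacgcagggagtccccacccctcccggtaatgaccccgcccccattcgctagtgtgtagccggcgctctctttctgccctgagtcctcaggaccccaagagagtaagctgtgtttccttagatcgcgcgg
Cd34: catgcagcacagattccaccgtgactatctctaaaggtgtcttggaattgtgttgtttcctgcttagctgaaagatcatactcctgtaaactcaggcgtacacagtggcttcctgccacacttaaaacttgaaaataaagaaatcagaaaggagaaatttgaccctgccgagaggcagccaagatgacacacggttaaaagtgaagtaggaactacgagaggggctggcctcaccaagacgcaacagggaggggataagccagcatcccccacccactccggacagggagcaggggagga
Tek, the angiopoietin receptor, held ACAAAG at bases -26 to -21 from the start and AGATAAG at bases 37 to 43. Stab1, a scavenger receptor, held ACAGGAA on the opposite strand at bases -13 to -7, and neither Kdr nor Cd34 held any of these letters in the window. Among all 23 member promoters, ACAGGAA occurred in 21.7% (5 promoters of Egfl7, Emcn, Stab1 and Tie1), against 8.67% of all 32851 mouse promoters in the table. AGATAAG occurred in 8.7% of member promoters (Erg and Tek) against 3.04% of all. ACAAAG occurred in 13% (Egfl7, Eng and Tek) against 18.7%, and CCGGAAG in 0 against 8.86%. None of the motifs overlapped another in these promoters, several of the 23 belong to the same gene, and 12 of the 19 members with a promoter held no match. The shares describe these windows, and no binding was measured.

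Endothelial transcripts were lower in Shp2 KO liver than in WT liver. Of the 33 members, 29 lay below WT and 7 fell, while 0 rose, where 4.1% of all 12588 tested genes fell and 5.23% rose. The median difference of the members was -0.30 on the log2 scale, and that of all tested genes was -0.03. The fallen genes were 4 of the 12 sinusoidal genes (Lyve1, Oit3, Dnase1l3 and Flt4) and 3 of the 18 general vascular genes (Kdr, Tek and Mmrn2), and 0 of the 3 Wnt-pathway ligands. The plot of differences from WT in whole liver shows the Shp2 KO points to the left of the WT line for most members.

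**Figure D1:**
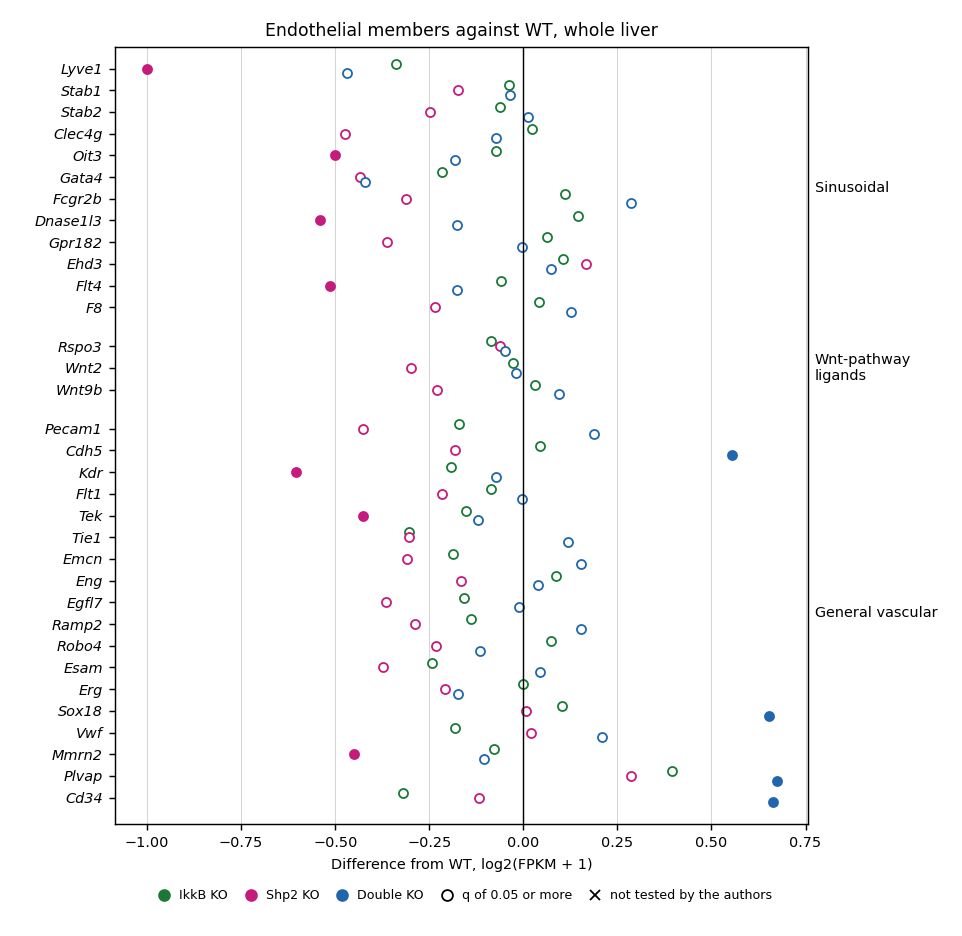
Difference of each of the 33 members from WT in whole liver, on the log2(FPKM + 1) scale (x axis), for IkkB KO, Shp2 KO and Double KO. Each point is 1 pooled value, filled where the authors' q was under 0.05, and 7 filled Shp2 KO points lie below WT while 4 filled Double KO points, all in general vascular genes, lie above it.

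Lyve1, a hyaluronan receptor of sinusoidal and lymphatic endothelium, showed the most marked fall. Its liver level was 3.79 FPKM in WT, 2.78 in IkkB KO, 1.39 in the Shp2 KO and 2.46 in the Double KO, so all 3 knockouts were below WT and Shp2 KO was lowest. The fall in Shp2 KO was 2.72-fold, with q = 0.000955 in the authors' deposited table. Against IkkB KO liver, Lyve1 in Shp2 KO liver was also lower (q = 0.00442 in the authors' deposited table).

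The growth factor receptors Kdr, Flt4 and Tek fell as well. Kdr, the main signalling receptor for VEGF-A, was 5.61 FPKM in WT, 4.78 in IkkB KO, 3.35 in the Shp2 KO and 5.28 in the Double KO liver, a 1.67-fold fall in Shp2 KO (q = 0.00442 in the authors' deposited table). Flt4, the receptor for VEGF-C and VEGF-D, was 4.51, 4.29, 2.86 and 3.87 FPKM in the same order, a 1.58-fold fall (q = 0.0143 in the authors' deposited table). For both receptors Shp2 KO stood apart as the lowest genotype, with the other knockouts between it and WT. Tek was 2.20 FPKM in WT, 1.88 in IkkB KO, 1.38 in the Shp2 KO and 1.94 in the Double KO, and its Shp2 KO difference from WT had q = 0.0365 in the authors' deposited table. The remaining receptors did not pass: Flt1 was 0.842 FPKM in WT and 0.585 in Shp2 KO, and Tie1, the partner of Tek, was 4.88 FPKM in WT and 3.76 in both IkkB KO and Shp2 KO.

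Secreted and matrix products gave the rest of the fallen genes. Dnase1l3 was 14.5 FPKM in WT, 16.1 in IkkB KO, 9.66 in the Shp2 KO and 12.7 in the Double KO liver, with q = 0.0134 for Shp2 KO against WT in the authors' deposited table. Oit3, a secreted protein found in sinusoidal endothelium, was 8.41, 7.94, 5.65 and 7.29 FPKM in that order (q = 0.0325 in the authors' deposited table). Mmrn2, a multimerin of the vascular matrix, was 2.40, 2.22, 1.49 and 2.17 FPKM (q = 0.0285 in the authors' deposited table). In each of these, too, Shp2 KO held the lowest level of the 4 genotypes.

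That order was common in the list. Shp2 KO liver had the lowest level of the 4 genotypes for 26 of the 33 members, among them 11 of 12 sinusoidal genes. It was lowest for 19.6% of all genes that reached at least 1 FPKM in a genotype, a filter not applied to the members. The exception among sinusoidal genes was Ehd3, an endocytic trafficking protein, at 13.2 FPKM in WT, 14.3 in IkkB KO, 15.0 in the Shp2 KO and 13.9 in the Double KO. Clec4g, at 46.1 FPKM in WT and 32.9 in Shp2 KO, and Gata4, a transcription factor that specifies sinusoidal endothelium, at 6.61 and 4.63 FPKM, were lower without passing (q = 0.0685 and 0.0773 in the authors' deposited table). Stab1 and Stab2, the scavenger receptors, were nearer to WT, at 6.91 against 6.01 FPKM and 4.55 against 3.67 FPKM. Markers of other liver cells went in various directions. Macrophage markers summed to 298 FPKM in WT and 406 in Shp2 KO liver, with 4 of 14 risen and 0 fallen, and stellate cell markers to 197 and 221 FPKM, with 2 of 14 risen. Lymphocyte markers summed to 7.91 and 4.95 FPKM, with 3 of 8 tested fallen, and 2 of 7 tested bile duct markers fell. The part of these cells in the endothelial levels was not tested. The sinusoidal genes summed to 143 FPKM in WT and 108 in Shp2 KO, and the general vascular genes to 123 and 107.

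In IkkB KO liver 0 of the 33 members passed, where 2.37% of all 12484 tested genes rose and 2.17% fell. Without adjustment, 3 members had p under 0.05 in the authors' deposited table: Lyve1 and Cd34, which were lower, and Plvap, which was higher. Cd34 was 1.45 FPKM in WT and 0.959 in IkkB KO, and Plvap was 21.7 and 28.9 FPKM. The median difference of the members was -0.06 on the log2 scale beside -0.01 for all tested genes, and 12 members were above and 21 below WT. Between the single knockouts, 3 members (Lyve1, Dnase1l3 and Flt4) fell and 0 rose in Shp2 KO against IkkB KO liver, where 4.84% of all 12605 tested genes fell and 5.43% rose.

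In Double KO liver the general vascular genes Cdh5, Sox18, Plvap and Cd34 were higher than in WT, and no sinusoidal gene passed. These 4 rose and 0 members fell, where 11.5% of all 12940 tested genes rose and 6.62% fell, so the number that rose was near the background. Cd34 was 1.45 FPKM in WT, 0.959 in IkkB KO, 1.25 in the Shp2 KO and 2.87 in the Double KO, 1.99-fold above WT with q = 0.00315 in the authors' deposited table. Sox18, a transcription factor of developing vessels, was 3.04, 3.34, 3.07 and 5.36 FPKM in the same order (q = 0.0192 in the authors' deposited table). For both genes Double KO was the highest genotype, and the other genotypes lay between 0.959 and 1.45 FPKM for Cd34 and between 3.04 and 3.34 FPKM for Sox18. Cdh5, the cadherin of endothelial junctions, was 4.78 FPKM in WT, 4.96 in IkkB KO, 4.09 in the Shp2 KO and 7.48 in the Double KO (q = 0.0138 in the authors' deposited table). Plvap differed in that both single knockouts were already above WT, at 21.7, 28.9, 26.8 and 35.3 FPKM, with q = 0.00503 for Double KO in the authors' deposited table.

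**Figure D2:**
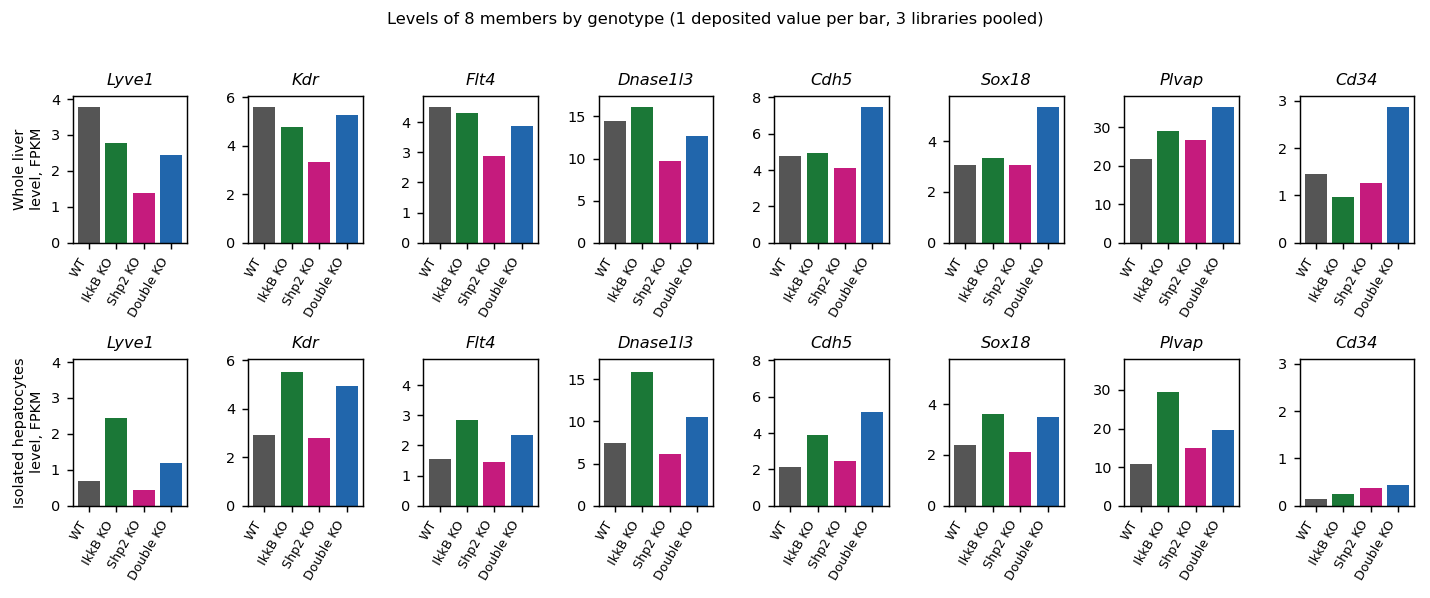
Levels in FPKM (y axis, from 0) of 8 members by genotype, in whole liver (upper row) and isolated hepatocytes (lower row), with 1 pooled value per bar and the same scale for a gene in both rows. Lyve1, Kdr, Flt4 and Dnase1l3 are lowest in Shp2 KO in both rows, whereas Cdh5, Sox18, Plvap and Cd34 are highest in Double KO in liver.

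The sinusoidal genes of Double KO liver lay near WT. Their median difference from WT was -0.05 on the log2 scale, that of the general vascular genes was 0.08, and that of all tested genes was -0.03. Lyve1 in Double KO had q = 0.0677 and Gata4, at 4.69 FPKM against 6.61 in WT, had q = 0.0841 in the authors' deposited table. The difference between the sinusoidal and the vascular genes was not tested. Double KO had the highest level of the 4 genotypes for 14 members, of which 10 were general vascular, and the lowest for 0. Over all genes that reached at least 1 FPKM in a genotype, Double KO was highest for 28.4% and lowest for 37%.

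Beside this, macrophage markers summed to 819 FPKM in Double KO liver against 298 in WT, with 13 of 14 risen, and stellate cell markers to 283 against 197, with 7 of 14 risen and 1 fallen. None of the 14 macrophage or 14 stellate cell markers was listed at 0 in any genotype, and platelet markers, which matter for Vwf, summed to 7.38 FPKM in Double KO and 5.19 in WT liver. Of the other markers in Double KO liver against WT, 3 of 6 tested neutrophil markers rose, 1 of 7 bile duct markers rose and 1 fell, and 0 passed among 8 lymphocyte, 4 platelet, 3 mesothelial and 10 hepatocyte markers. Whether these cells contributed to the vascular levels was not tested.

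**Figure D3:**
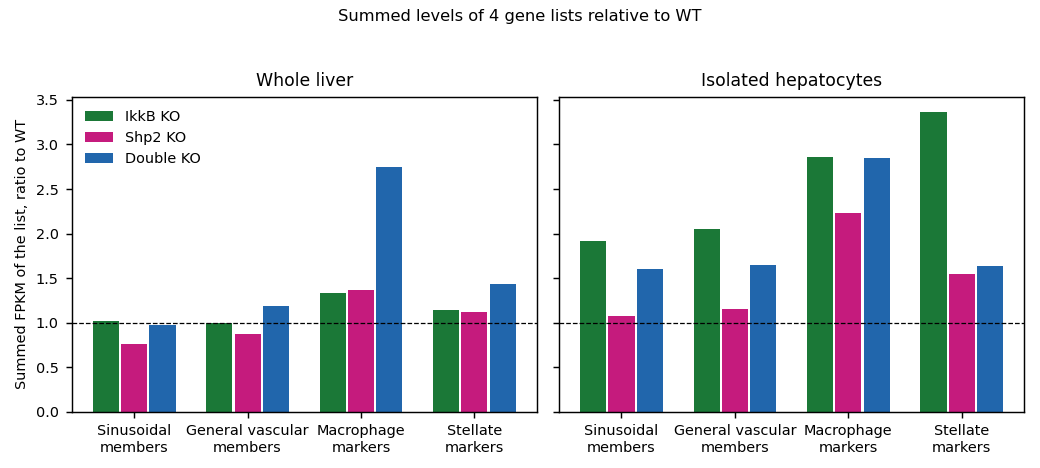
Summed FPKM of the 12 sinusoidal and 18 general vascular members and of the macrophage and stellate cell markers, as a ratio to WT (y axis, from 0; dashed line at WT) for each knockout, in whole liver (left) and isolated hepatocytes (right). In whole liver the sinusoidal sum is 0.759 of WT in Shp2 KO, while the macrophage sum is 2.75 times WT in Double KO.

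Double KO liver was higher than Shp2 KO liver in endothelial transcripts. In this comparison 9 of 33 members rose and 0 fell, where 7.94% of all 12878 tested genes rose and 2.83% fell, and 32 members were above Shp2 KO. The median difference was 0.35 on the log2 scale beside -0.0025 for all tested genes. The risen genes came from all groups: Lyve1, Fcgr2b and the coagulation factor gene F8 among the sinusoidal, Wnt9b among the ligands, and Pecam1, Cdh5, Kdr, Sox18 and Cd34 among the general vascular. Pecam1, an adhesion molecule of endothelial junctions, was 5.75 FPKM in WT, 5.003 in IkkB KO, 4.03 in the Shp2 KO and 6.69 in the Double KO (q = 0.00248 for Double KO against Shp2 KO in the authors' deposited table). Wnt9b was 0.544, 0.578, 0.317 and 0.649 FPKM in the same order (q = 0.0246 in the authors' deposited table). In both genes Shp2 KO was the lowest and Double KO the highest genotype. Markers of other cells were higher in the same comparison, with 11 of 14 macrophage markers, 6 of 6 tested neutrophil markers and 5 of 14 stellate cell markers risen and 1 stellate cell marker fallen, and their part in the result was not tested.

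Against IkkB KO liver, 3 members (Cdh5, Vwf and Cd34) rose in Double KO and 0 fell, where 11.5% of all 12925 tested genes rose and 7.5% fell, so the count was not above the background. The median difference of the members was 0.06 on the log2 scale, with that of the sinusoidal genes at -0.08 and that of the vascular genes at 0.28. Among the markers of other cells, 12 of 14 macrophage, 6 of 14 stellate cell and 5 of 6 tested neutrophil markers rose here. So did 3 of 3 tested mesothelial markers, 4 of 7 tested bile duct markers and 1 of 4 tested platelet markers (Pf4). Those that fell were 1 stellate cell, 1 bile duct and 2 of 9 tested lymphocyte markers, and 0 of 10 tested hepatocyte markers passed. The part of these cells in the result was not tested. Cd34 was 3.00-fold higher (q = 0.000955 in the authors' deposited table) and Vwf, at 1.17 FPKM in WT, 0.912 in IkkB KO, 1.20 in the Shp2 KO and 1.51 in the Double KO, was 1.66-fold higher (q = 0.00785 in the authors' deposited table). Both genes were lowest in IkkB KO and highest in Double KO.

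The Double KO was also set beside the sum of the single effects, on the log2(FPKM + 1) scale and with no test, since the replicate values needed for one were not given. In liver 31 of 33 members were above the sum, by a median of 0.38, whereas 50.7% of the 11297 genes with at least 1 FPKM were above theirs, with a median of 0.01. Cd34 exceeded the sum by 1.10 and Lyve1 by 0.87. Ehd3 and Plvap were the 2 members below it. All these differences share the same WT values.

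Among the Wnt-pathway ligands of liver, Wnt9b passed in 1 comparison (Double KO against Shp2 KO) and the other two in none. Rspo3, which amplifies Wnt signals by stabilising their receptors, was 2.39 FPKM in WT, 2.20 in IkkB KO, 2.25 in the Shp2 KO and 2.28 in the Double KO. Wnt2 was 1.46, 1.41, 0.997 and 1.42 FPKM, and it passed in 0 of the 6 liver comparisons. Of 18 genes driven by Wnt signals in hepatocytes, 1 rose (Oat, an ornithine-metabolising enzyme) and 0 fell in Shp2 KO liver against WT, 0 passed in IkkB KO, and 2 rose and 3 fell in Double KO. Of all tested genes, 5.23% rose and 4.1% fell in Shp2 KO liver, and 2.37% rose and 2.17% fell in IkkB KO. In Double KO liver 11.5% of all tested genes rose and 6.62% fell. Glul, the glutamine synthetase of hepatocytes around the central vein, was 405 FPKM in WT, 487 in IkkB KO, 544 in the Shp2 KO and 555 in the Double KO liver and did not pass against WT.

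Genes that send or receive vascular signals were followed in a list of 26 that holds no member. Vegfa, the main growth factor for sinusoidal endothelium and a product of hepatocytes, was 83.8 FPKM in WT, 88.0 in IkkB KO, 55.4 in the Shp2 KO and 40.5 in the Double KO liver. It fell in Shp2 KO (q = 0.0296) and in Double KO (q = 0.000955, both in the authors' deposited table), and Double KO had its lowest level. Kdr in Double KO liver was 5.28 FPKM, and a link between the levels of Vegfa and Kdr was not tested. In Shp2 KO, Id1, a target of BMP signals, fell as well, from 9.76 to 5.23 FPKM. Vegfb rose from 11.6 to 18.3 FPKM, among 23 tested genes, where 5.23% of all tested genes rose and 4.1% fell. In Double KO 8 of 23 rose and Vegfa alone fell, where 11.5% of all tested genes rose and 6.62% fell. The risen genes included Hgf, the hepatocyte growth factor, from 0.973 to 2.39 FPKM, Klf2, a transcription factor induced by flow, from 3.90 to 7.66 FPKM, and Gdf2, which encodes BMP9, from 4.87 to 7.88 FPKM.

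A further 28 endothelial genes, also without members, were counted beside them. In Shp2 KO liver 3 of 26 tested genes fell (Ptprb, Nrp1 and Ephb4) and Nrp2, a co-receptor, rose from 1.27 to 2.61 FPKM. Of all tested genes, 4.1% fell and 5.23% rose in Shp2 KO liver. Nrp1, a co-receptor of VEGF, was 24.1 FPKM in WT, 18.1 in IkkB KO, 14.7 in the Shp2 KO and 10.4 in the Double KO. In Double KO liver 6 of 27 rose, among them Thbd (thrombomodulin) from 1.02 to 2.71 FPKM and Cd93 from 0.859 to 1.88 FPKM, and Nrp1 alone fell. Of all tested genes, 11.5% rose and 6.62% fell in Double KO liver. IkkB KO liver had 0 of 26 passing, where 2.37% of all tested genes rose and 2.17% fell.

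Isolated hepatocytes still held endothelial RNA, at a lower level than whole liver in WT. Each preparation was processed into a table of its own, so these levels are set side by side with no test. In WT the hepatocyte level was a median 45.2% of the liver level over the 33 members, and all 33 were below liver. The median was 88.1% in IkkB KO, 60.4% in the Shp2 KO and 69.0% in the Double KO. For the 12 hepatocyte markers, of which 10 could be compared in WT and IkkB KO, the median was 146% in WT and 108% in IkkB KO. With 11 compared, it was 125% in the Shp2 KO and 124% in the Double KO. Albumin is listed at 0 in all genotypes and Apoa1 in some, and every pair in which a level of theirs is 0 carries the status HIDATA, Cuffdiff's mark for loci with too many fragments, in place of a test.

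**Figure D4:**
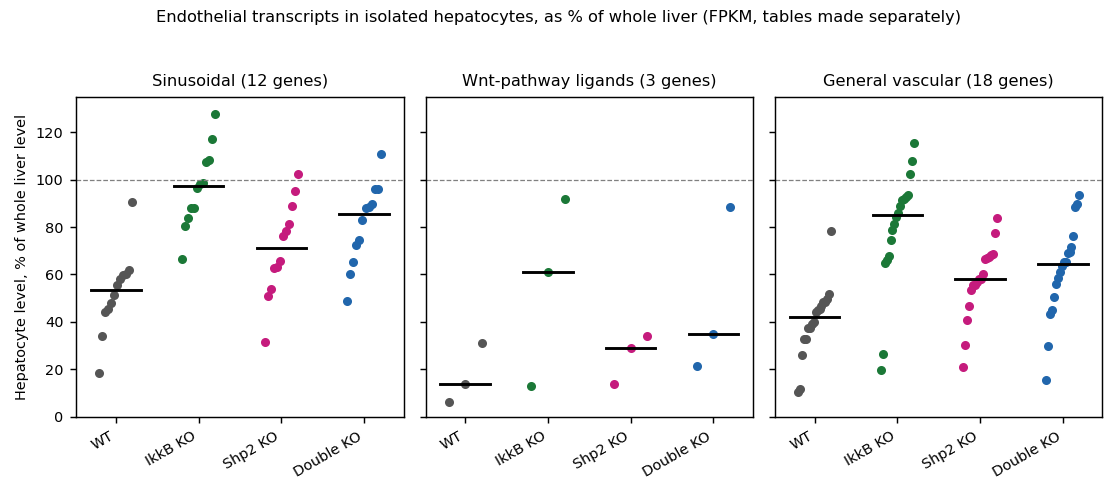
Level of each member in isolated hepatocytes as a percentage of its level in whole liver (y axis, dashed line at equal levels), by genotype and member group, with 1 point per gene spread sideways by rank and a bar at the median. Sinusoidal medians are 53.4% in WT and 97.4% in IkkB KO, and the WT points of all 3 groups lie below the dashed line.

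The share retained differed from gene to gene. In WT it was lowest for Wnt9b (6.06%), Cd34 (10.5%), Vwf (11.8%), Rspo3 (13.8%) and Lyve1 (18.5%), and highest for Sox18 (78.2%) and Gata4 (90.5%). Gata4 thus hardly differed between the preparations in WT, at 6.61 FPKM in liver and 5.99 in hepatocytes, and in this it went against the rest of the sinusoidal list, whose median was 53.4%. Markers of other non-hepatocyte cells were likewise lower than in liver in WT, with medians of 38.3% for macrophage and 34.9% for stellate cell markers. These 2 medians were 83.9% and 104% in IkkB KO, 67.0% and 48.5% in the Shp2 KO, and 48.9% and 42.4% in the Double KO.

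In hepatocytes from IkkB KO mice nearly the whole list was higher than in hepatocytes from WT mice. Of 30 tested members 23 rose and 0 fell, where 7.6% of all 12135 tested genes rose and 1.81% fell. They were 11 of 12 sinusoidal genes, both tested ligands and 10 of 16 tested vascular genes. The median difference was 0.68 on the log2 scale beside 0.0015 for all tested genes. Cd34, Vwf and Wnt9b were not tested by the authors.

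**Figure D5:**
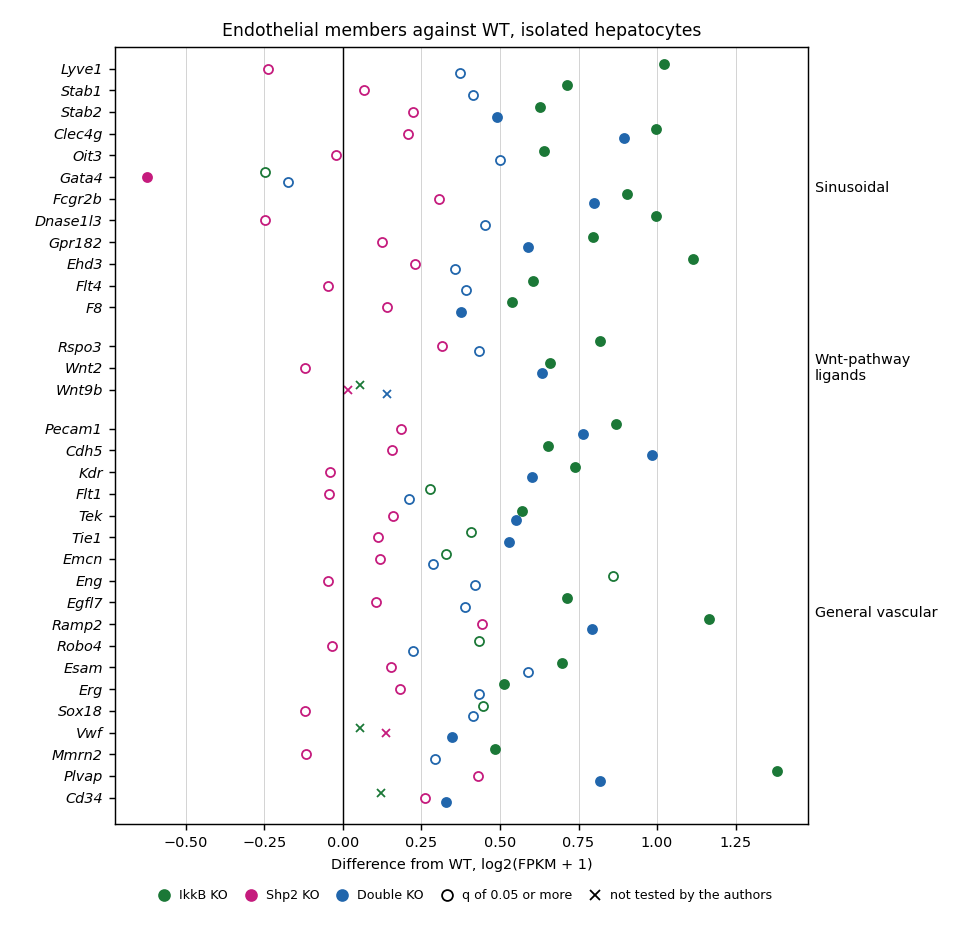
Difference of each of the 33 members from WT in isolated hepatocytes, on the log2(FPKM + 1) scale (x axis), for IkkB KO, Shp2 KO and Double KO. Points are pooled values, filled where the authors' q was under 0.05 and crossed where no test was made, and 23 IkkB KO and 15 Double KO points are filled to the right of WT, while Gata4 is the 1 filled Shp2 KO point, to the left.

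Lyve1 was 0.699 FPKM in WT, 2.45 in IkkB KO, 0.440 in the Shp2 KO and 1.20 in the Double KO hepatocytes, a 3.51-fold rise in IkkB KO (q = 0.00048 in the authors' deposited table). Clec4g was 22.2, 45.3, 25.8 and 42.1 FPKM in that order, and Ehd3 was 7.89, 18.2, 9.41 and 10.4 FPKM, both with q = 0.00048 for IkkB KO in the authors' deposited table. Plvap was 10.8, 29.6, 14.8 and 19.7 FPKM, 2.75-fold higher in IkkB KO. For each of these genes IkkB KO held the highest level, as it did for 27 of the 33 members. Over all genes that reached at least 1 FPKM in a genotype, IkkB KO was highest for 26.8%. The ligand Rspo3 was 0.330 FPKM in WT, 1.34 in IkkB KO, 0.656 in the Shp2 KO and 0.794 in the Double KO (4.08-fold in IkkB KO, q = 0.00089 in the authors' deposited table). Wnt2 was 0.455, 1.30, 0.338 and 1.26 FPKM, high in IkkB KO and Double KO and low in the other genotypes.

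Among the general vascular genes, Ramp2, which pairs with the receptor for adrenomedullin, rose from 3.51 to 9.13 FPKM and Pecam1 from 1.89 to 4.29 FPKM. Egfl7, Esam (an adhesion molecule of endothelial junctions) and Erg (an ETS transcription factor) rose too, from 9.48 to 16.2, from 2.59 to 4.83 and from 0.703 to 1.43 FPKM. The vascular genes that were tested and did not pass were Flt1, Tie1, Emcn, Eng, Robo4 and Sox18. Emcn, a sialomucin, was 0.681 FPKM in WT and 1.11 in IkkB KO, and Robo4, a receptor of the roundabout family, was 1.65 and 2.57 FPKM. Gata4 was the 1 tested member below WT, at 5.99 FPKM in WT and 4.89 in IkkB KO, and did not pass.

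Other non-hepatocyte markers moved in the same direction in these preparations. In IkkB KO hepatocytes 13 of 14 macrophage and 14 of 14 stellate cell markers rose, and their sums went from 130 to 374 FPKM and from 73.4 to 247 FPKM. The sinusoidal members summed to 74.7 FPKM in WT, 143 in IkkB KO, 80.2 in the Shp2 KO and 119 in the Double KO. Hepatocyte markers did not pass in this comparison (0 of 10 tested), and 1 of 3 neutrophil, 1 of 3 platelet, 1 of 4 bile duct and 0 of 3 lymphocyte markers rose. How many non-hepatocyte cells each preparation held was not measured in these files, and their part in the result was not tested. In whole liver 0 of the 33 members passed for the same genotype, and the difference between the preparations was not tested.

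In Shp2 KO hepatocytes 1 of 31 tested members passed, where 4.53% of all 12076 tested genes fell and 7.13% rose. That member was Gata4, at 5.99 FPKM in WT, 4.89 in IkkB KO, 3.53 in the Shp2 KO and 5.19 in the Double KO. The fall in Shp2 KO was 1.69-fold (q = 0.0079 in the authors' deposited table). In WT hepatocytes Gata4 stood at 90.5% of its liver level, beside a sinusoidal median of 53.4%. Which cells its RNA came from was not tested, so its fall cannot be assigned to endothelial cells. Kdr, Flt4 and Dnase1l3, which fell in Shp2 KO liver, did not pass here. Kdr was 2.91 FPKM in WT and 2.80 in Shp2 KO, Flt4 was 1.54 and 1.45, and Dnase1l3 was 7.45 and 6.11. The median difference of the members was 0.12 on the log2 scale beside -0.01 for all tested genes. Macrophage markers again rose in these preparations, 11 of 14, with a sum of 290 FPKM against 130 in WT, and 5 of 14 stellate cell markers rose.

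Double KO hepatocytes were higher than WT in 15 of 32 tested members and lower in 0, where 9.04% of all 12174 tested genes rose and 4.56% fell. The risen genes were 5 of 12 sinusoidal genes (Stab2, Clec4g, Fcgr2b, Gpr182 and F8), the ligand Wnt2, and 9 of 18 vascular genes (Pecam1, Cdh5, Kdr, Tek, Tie1, Ramp2, Vwf, Plvap and Cd34). Cdh5 was 2.12 FPKM in WT, 3.90 in IkkB KO, 2.47 in the Shp2 KO and 5.17 in the Double KO (q = 0.00048 for Double KO in the authors' deposited table), so Double KO was highest in hepatocytes as it was in liver. Vwf was 0.138, 0.180, 0.251 and 0.448 FPKM (3.26-fold in Double KO, q = 0.00527 in the authors' deposited table) and Cd34 was 0.151, 0.252, 0.381 and 0.447 FPKM. Both were low in all 4 genotypes and highest in Double KO. Gpr182, a chemokine-binding receptor of sinusoidal endothelium, was 6.09, 11.3, 6.73 and 9.67 FPKM. Macrophage markers, 13 of 14 of which rose, and stellate cell markers, 8 of 14, moved with these genes, and their part in the result was not tested.

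Against IkkB KO hepatocytes, Double KO hepatocytes were lower in Lyve1, Dnase1l3 and Ehd3 and higher in Vwf. This made 3 of 32 tested members that fell and 1 that rose, where 5.62% of all 12321 tested genes fell and 5.75% rose. Dnase1l3 was 7.45 FPKM in WT, 15.9 in IkkB KO, 6.11 in the Shp2 KO and 10.6 in the Double KO (q = 0.0269 for this comparison in the authors' deposited table). Stellate cell markers were lower in the same comparison, with 7 of 14 fallen, 1 risen and their sum at 247 FPKM in IkkB KO and 120.01 in Double KO, and their part in the result was not tested. Against Shp2 KO hepatocytes 8 of 32 rose (Lyve1, Clec4g, Dnase1l3, Flt4, Wnt2, Pecam1, Cdh5 and Kdr) and 0 fell, where 3.44% of all 12250 tested genes rose and 3.31% fell, and all 32 tested members were above Shp2 KO. Lyve1, Pecam1, Cdh5 and Kdr also rose in Double KO against Shp2 KO liver. The share of all genes that rose in this comparison in both preparations was not counted. Relative to the sum of the single effects, 26 of 33 members in Double KO hepatocytes were below it, by a median of -0.26 over the list, with no test, whereas 52.1% of the 10994 genes with at least 1 FPKM were above theirs, with a median of 0.01.

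The signalling genes of hepatocyte preparations were counted beside the members. In IkkB KO 8 of 20 tested signalling genes rose and 0 fell, where 7.6% of all tested genes rose, with Hgf from 0.845 to 4.35 FPKM and Bmp2, a ligand made by sinusoidal endothelium, from 1.76 to 3.92 FPKM. In Shp2 KO, where 0 members rose, 5 of 18 signalling genes did and 0 fell, against 7.13% of all tested genes that rose. Among them Bmp6, a ligand in the control of iron, was 0.935 FPKM in WT and 6.29 in Shp2 KO. Vegfa was 57.8 FPKM in WT, 56.8 in IkkB KO, 42.0 in the Shp2 KO and 29.7 in the Double KO, and it fell in Double KO (q = 0.00048 in the authors' deposited table). Of the further endothelial genes 10 of 24 rose in IkkB KO and S1pr1, the receptor for sphingosine 1-phosphate, fell from 17.9 to 8.79 FPKM. In Double KO 10 of 25 rose and 0 fell, where 9.04% of all tested genes rose and 4.56% fell. In WT hepatocytes S1pr1 stood at 119% of its liver level, the highest of this list, whose median was 46.2%. Which cells its RNA came from was not tested, so its fall cannot be assigned to endothelial cells.

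The Wnt-driven genes were counted in the hepatocyte preparations as well. The hepatocyte level of these 18 genes was a median 40.6% of the liver level in WT and 22.8% in IkkB KO. This median was 31.9% in the Shp2 KO and 71.5% in the Double KO. Whether these differences in the share retained contributed to the counts below was not tested. In IkkB KO hepatocytes 4 of 17 tested genes fell (Cyp2e1, Cyp1a2, Oat and Slc1a2) and 0 rose, where 1.81% of all tested genes fell and 7.6% rose. The ligands Rspo3 and Wnt2 rose there, as did 14 of 14 stellate cell and 13 of 14 macrophage markers. A link between the ligands and the Wnt-driven genes was not tested. In Shp2 KO hepatocytes 3 of 17 fell (Glul, Rhbg and Slc1a2) and 0 rose, where 4.53% of all tested genes fell and 7.13% rose. In Double KO hepatocytes 8 of 18 rose and 0 fell, where 9.04% of all tested genes rose and 4.56% fell. Glul was 109.8 FPKM in WT, 68.3 in IkkB KO, 33.1 in the Shp2 KO and 246 in the Double KO hepatocytes. Against WT it fell in Shp2 KO and rose in Double KO, and it did not pass in IkkB KO. The liver levels of Glul did not follow the same order of genotypes. Oat was 199.9 FPKM in WT and 659.8 in Double KO hepatocytes.

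Across the 11 comparisons, 16 of the 33 members passed in at least 1 liver comparison, 27 in at least 1 hepatocyte comparison, and 14 in both tables. Of all genes tested at least once, 28.8% of 13078 passed in a liver comparison, 24.4% of 12534 in a hepatocyte comparison and 18.6% of 12295 in both. Flt1, Emcn, Eng and Robo4 passed in none. Cdh5 rose in 3 comparisons of each table and fell in 0. Lyve1 passed in 3 comparisons of each table, in both directions.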

How the data were processed

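Libraries were prepared from polyA RNA with an Illumina TruSeq v2 kit, per the labels' protocols, for 24 samples (8 groups of 3 biological replicates). Per the submitters' processing notes, FastQC and Cuffdiff were run with build mm9. Aligner, annotation, use of strand and program versions: not given in the sources used here, so genes that overlap another on either strand are uncertain.

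The authors deposited 1 Cuffdiff table of 6 pairs of genotypes for liver and 1 of 5 pairs for hepatocytes, without a Shp2 KO against IkkB KO pair. Each expression value deposited by the authors pools 3 libraries, and its unit, which the header does not name, was read as FPKM by the convention of Cuffdiff. The deposited log2 fold changes and the deposited test statistic, a score, were not used. Each deposited p-value and q-value comes from the authors' Cuffdiff test. Recomputing the q-values by Benjamini-Hochberg adjustment over all deposited pairs gave a largest difference of 5.27e-07 in liver and 0.284 in hepatocytes, so the hepatocyte adjustment could not be rebuilt. The smallest q-values were 0.000955 and 0.00048. No value per replicate (0 columns per sample), count or library size was given, so depth and precision are unknown and no test of the values was made here.

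A gene was called where the authors tested it, q was under 0.05 and the level was at least 0.1 FPKM in 1 of the 2 genotypes. Differences were log2(FPKM + 1). The scripts ran in Python 3.11.15 (pandas 2.3.3, numpy 2.4.6, matplotlib 3.10.9), and the steps were checked on simulated data. Alternatives were other filters on low values, q under 0.01, a log2 difference of at least 1, adjustment within a comparison, pseudocount 0.1 and centring on all tested genes.

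The members and the 11 other gene lists (further endothelial, vascular signalling and Wnt-driven genes, and markers of macrophages, stellate cells, bile duct, lymphocytes, neutrophils, platelets, mesothelium and hepatocytes) were chosen with earlier results of these data known. Every member could be named, and of each other list up to 4 genes that passed in a comparison, smallest q first, besides markers and the targeted genes. Promoters came from RefSeq (GRCm38.p6), and no coordinate was moved between builds.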

Additional observations from a re-analysis of the deposited data

How the results depend on the processing

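No paired analysis was possible because the tables hold 1 pooled value per genotype, and for the same reason leaving out each replicate was not run. Depth could not be assessed. Of the 77 calls of members, the same call was made in 73 with a level of at least 1 FPKM and 62 with adjustment within the comparison. It was made in 43 at q under 0.01 and 5 with a log2 difference of at least 1. All 77 kept their direction after centring. All 77 also stayed without a filter and with pseudocount 0.1. Neither of these 2 settings can remove a call or turn its direction, so they are no check of the calls. At q under 0.01 the members called in liver were 2 for Shp2 KO against WT, 2 for Double KO against WT and 4 for Double KO against Shp2 KO, and in hepatocytes 7 for Double KO against WT, 2 against IkkB KO and 4 against Shp2 KO. With a log2 difference of at least 1, liver kept 1 member for Shp2 KO against WT and 0 for Double KO against WT, IkkB KO or Shp2 KO and for Shp2 KO against IkkB KO. Hepatocytes then had 4 for IkkB KO against WT and 0 in the other 4 comparisons. Adjustment within the comparison gave 5 for Double KO against IkkB KO in liver and 4 for Double KO against Shp2 KO in hepatocytes. With pseudocount 0.1 the hepatocyte median differences became 0.89 for IkkB KO against WT, 0.67 for Double KO against WT and 0.54 for Double KO against Shp2 KO. The cause of these shifts was not tested. The remaining 37 counts stayed within 1.5 times and the remaining 30 medians within 0.1.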
